A study of Mus musculus with 6 samples.

Results

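Long intergenic noncoding RNA (lincRNA) genes make transcripts that, by the annotation, code for no protein and mostly lie apart from coding genes. Their expression was compared between mouse embryonic stem cells lacking the homeobox gene Hoxd12 and wild-type cells. Of 55450 genes in the files, GENCODE M21 calls 5854 lincRNA, and 5209 of these lie on autosomes. The 159 genes described here had a mean expected count of at least 20 over the 6 libraries. H19, Meg3, Rian, Mirg and Gm48610 were left out by name, which removed 4 of the 163 genes at or above that mean. The genes were thus chosen by their mean expected count over both genotypes, which is not used as a result. Just inside it lay Gm20362, with a mean of 20.002 counts, and D5Ertd605e with 20.2. Just outside it lay 1110019D14Rik with 19.8 and Gm43672 with 19.7. All 159 passed the filter on low counts. The mean in the knockout was under 20 counts for 12 of them and the mean in wild type for 5. Another 85 autosomal lincRNA genes had means from 10 to under 20 counts and are not described, and 3525 had 0 counts in every library.

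The knockout group held 3 libraries of embryonic stem cells with the genotype Hoxd12-/-, and the other group 3 libraries of wild-type cells. Both kinds of cells were of strain C57BL6 and came from E3.5 embryos. They grew in a mouse stem cell medium with 2i, which blocks a pair of kinases and keeps stem cells naive. The libraries were made from polyadenylated RNA with a stranded kit. Whether a group's 3 libraries came from separate cultures, clones or embryos is not in the labels. The p-values therefore reflect the spread among these 6 libraries alone, and it may be technical.

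LincRNAs are transcribed by RNA polymerase II and are often spliced and polyadenylated, but most are scarcer than messenger RNAs and many stay in the nucleus. Some act on the gene next to them, through the act of transcription or through their own promoter, and others act elsewhere as scaffolds, decoys for proteins or microRNAs, or hosts of small RNAs. Much of lincRNA sequence derives from transposable elements, which differ between loci only in part. In naive embryonic stem cells several lincRNAs are expressed together with the pluripotency network and are lost on differentiation.

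Library totals lay between 5412577 and 6280934 expected counts, so 3 counts of a gene were worth 0.478 to 0.554 CPM (CPM are counts scaled to library size, with TMM factors where libraries are compared). Hoxd12 itself had 0 counts in all 6 libraries, and so gives no check of the genotype labels. All 11 stem cell markers were detected, with a summed level of 12546 to 12822 TPM (a level scaled by transcript length and depth) in the knockout and 11283 to 11832 TPM in wild type. Fibroblast markers summed to 3.76 to 7.90 TPM in the knockout and 7.80 to 11.96 TPM in wild type, with 4 of 10 at 0 (Col3a1, Dcn, Lum and Postn). The blood markers summed to at most 1.57 TPM with Ptprc at 0, and the 4 neural markers to between 21.03 and 25.77 TPM over all libraries. Fewer cells of a type and less RNA per cell cannot be told apart in bulk RNA.

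Knockout replicate 2 stood apart from the other libraries at a ribosomal RNA locus of chromosome 17, where 3 of the genes lie. AY036118 (ENSMUSG00000105361, chr17:39847113-39848035, minus strand) had 343, 5431 and 318 CPM in the knockout libraries and 454, 355 and 461 CPM in wild type. Gm26917 had 379, 1418 and 321 CPM in the knockout libraries and 358, 345 and 358 CPM in wild type. Gm42418, which holds every 31-base stretch of AY036118 and overlaps it on the other strand, had 558, 1313 and 502 CPM in the knockout libraries and 815, 810.4 and 826 CPM in wild type. In each of these genes knockout replicate 2 was the highest of all libraries. Counts of that library differed from those of the other knockout libraries by a chi-square of 12.1 and 13.6 per degree of freedom, while other pairs within a group gave 1.99 to 2.52. Results that rest on the 3 genes of the ribosomal RNA locus are given with and without them. Without knockout replicate 2 Gm42418 was called lower (-0.62, adjusted p = 2.26e-11), and with it the value was -0.05 (adjusted p = 0.953).

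Of the 159 genes, 53 fell and 6 rose in the knockout by edgeR's quasi-likelihood test, at a threshold of 0.05 on p-values adjusted by Benjamini and Hochberg over 12891 genes. Over all tested genes, 14.4% were called lower and 12.1% higher, whereas the lincRNA genes had 33.3% lower and 3.77% higher. The median log2 fold change (knockout over wild type) was -0.28 for them and 0.02 for all tested genes, and 111 of 159 values were below 0. Coding genes had a median of 0.02. Of the calls, 21 were falls of at least 2-fold and 0 were rises of that size. The share of all tested genes with calls of that size is not given here, so these 2 counts have no background. The groups did not overlap for 67 genes that were lower and 9 that were higher, or 76 of 159 in all, where 39.7% of all tested genes were so (20% lower and 19.6% higher). DESeq2 called 39 lower and 4 higher, against 9.99% and 5.44% of all genes (15.4% together). With limma on log2(TPM + 1) 34 fell and 8 rose, against 5.81% and 8.59% of all genes (14.4% together). Without knockout replicate 2 the counts were 52 lower and 7 higher, against 1787 lower and 1423 higher of 13211 tested genes. Without chromosomes 6, 8 and 11 they were 47 lower and 5 higher of 135, against 1428 lower and 1106 higher of 10504.

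Coding genes of like level had other shares of calls. The lincRNA genes between the lower and upper quartile of level had a mean of 5.40 to 21.3 CPM, and 26 of those 79 fell and 2 rose. Of 3651 coding genes within the same range of CPM, 221 fell (6.05%) and 442 rose (12.1%), with a median of 0.08. Calls were more frequent where counts were higher: 39 of 79 genes above the median level of the lincRNA genes (8.83 CPM) fell, and 14 of 80 at or below it, at medians of -0.32 and -0.25. Genes with several exons were lower in 49 of 134 cases and single-exon genes in 4 of 25. Genes annotated as TEC, meaning that they are yet to be checked by experiment, and antisense genes had medians of -0.35 and -0.17, with 44 of 147 and 29 of 138 called lower.

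**Figure D1:**
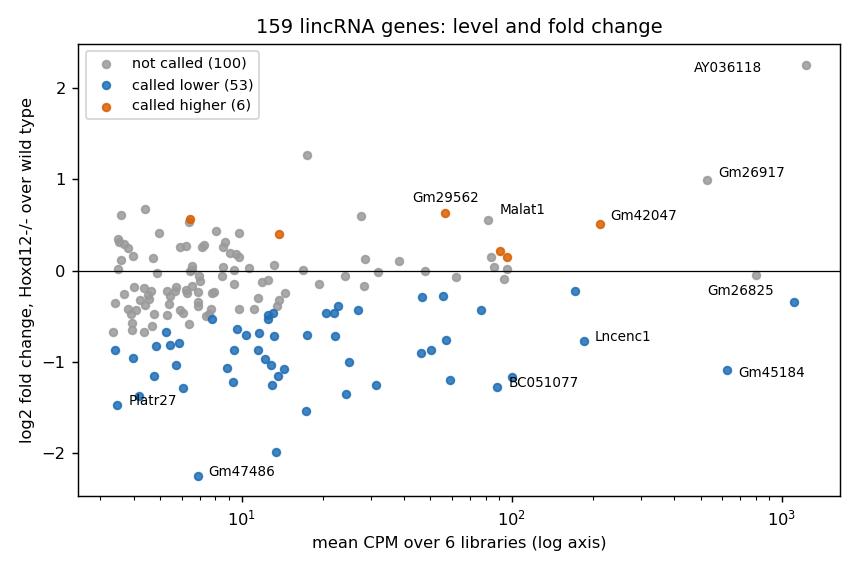
Each point is 1 of the 159 lincRNA genes. The horizontal axis is its mean CPM over the 6 libraries on a log axis, the vertical axis its log2 fold change, and colour marks the edgeR call. The 53 lower calls span all levels, while AY036118 and Gm26917 at the upper right are uncalled genes of the ribosomal RNA locus that rest on 1 library.

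Several lincRNAs named for the pluripotent state fell. Lncenc1 (ENSMUSG00000078952, chr13:97434970-97497007), an RNA of naive embryonic stem cells that has been linked to their glycolytic genes, had 139, 134 and 136 CPM in the knockout libraries and 229.8, 239 and 229.97 CPM in wild type. All 3 knockout libraries lay far below all wild-type libraries, and the spread within a group was a small part of the distance (log2 fold change -0.78, SE 0.05, adjusted p = 8.03e-15). Platr3 (ENSMUSG00000084762, chr2:135648907-135652063), 1 of the pluripotency-associated transcripts, had 6.72, 9.83 and 8.31 CPM in the knockout libraries and 16.8, 14.5 and 17.02 CPM in wild type. The groups did not overlap (log2 fold change -0.96, SE 0.16, adjusted p = 2.40e-05). Platr27 (ENSMUSG00000087547, chr2:157595583-157597320) had 1.92, 1.89 and 1.69 CPM in the knockout libraries and 3.67, 7.17 and 4.47 CPM in wild type, also without overlap (log2 fold change -1.47, SE 0.33, adjusted p = 0.00107). Eprn, a transcript that appears briefly as cells leave the naive state, had 6.72, 9.26 and 7.70 CPM in the knockout libraries and 12.6, 14.3 and 11.5 CPM in wild type (log2 fold change -0.71, SE 0.17, adjusted p = 0.00206); it stands outside the rule for named genes and was chosen after its value was seen.

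The Platr transcripts did not move as 1 group. Platr10 (ENSMUSG00000099370, chr3:75647446-75655731) rose slightly, with 103, 102 and 98.1 CPM in the knockout libraries and 92.4, 89.2 and 91.3 CPM in wild type (log2 fold change 0.15, SE 0.06, adjusted p = 0.049). The rise was the same in direction under every alternative but its call was lost in 12 of 16, with adjusted p up to 1.00, among them RLE scaling (0.0590) and DESeq2 (0.246). Platr4 (log2 fold change -0.38, adjusted p = 0.332) and Platr26 (-0.31, adjusted p = 0.425) were not called, and their groups overlapped. The expected counts of these 5 Platr genes and of Lncenc1 and Eprn were whole numbers (within 0.005) in every library, as when no read is divided between genes.

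Starts of 66 lincRNA genes could be matched by symbol to promoters of RefSeq (GRCm38.p6; 250 bases before to 50 after the start), and 45 of these starts lay within 100 bases of the GENCODE start. The promoters of 3 called genes with whole counts are shown because they differ widely in CpG content. Capitals mark each CG. The windows lie at chr13:97434720-97435019 (plus strand), chr13:73347335-73347634 (minus strand) and chr15:83367248-83367547 (minus strand).
Lncenc1: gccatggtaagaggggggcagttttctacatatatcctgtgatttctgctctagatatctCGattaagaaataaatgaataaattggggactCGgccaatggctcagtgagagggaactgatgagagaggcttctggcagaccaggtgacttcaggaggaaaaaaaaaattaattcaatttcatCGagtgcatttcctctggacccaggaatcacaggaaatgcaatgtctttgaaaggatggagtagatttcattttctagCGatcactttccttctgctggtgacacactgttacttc
Eprn: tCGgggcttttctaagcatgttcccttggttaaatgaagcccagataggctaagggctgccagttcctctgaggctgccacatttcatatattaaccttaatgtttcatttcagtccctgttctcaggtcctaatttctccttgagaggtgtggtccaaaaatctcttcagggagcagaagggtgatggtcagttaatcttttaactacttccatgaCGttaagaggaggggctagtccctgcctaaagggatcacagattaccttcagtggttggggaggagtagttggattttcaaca
1700001L05Rik: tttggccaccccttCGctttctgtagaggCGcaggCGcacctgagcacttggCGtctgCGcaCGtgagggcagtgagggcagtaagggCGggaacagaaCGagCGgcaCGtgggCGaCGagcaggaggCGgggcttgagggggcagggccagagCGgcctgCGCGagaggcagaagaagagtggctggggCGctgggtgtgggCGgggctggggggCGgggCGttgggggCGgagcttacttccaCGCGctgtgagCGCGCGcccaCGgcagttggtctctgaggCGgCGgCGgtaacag

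The promoter of Lncenc1 holds 4 CG pairs and that of Eprn 2, while that of 1700001L05Rik, which fell by 0.49 on the log2 scale (adjusted p = 0.0154), holds 30. The observed over expected ratio of CG was 0.304, 0.131 and 0.893. Its median was 0.372 over the 14 matched genes called lower and 0.504 over the other 31, and 0.384 over all 32851 promoters of the table. The octamer ATGCAAAT, searched on both strands, stood in 4 of the 45 windows and in 1.74% of all promoters. A match describes letters in a window and is not evidence of binding.

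Of the nuclear lincRNAs, Malat1 (ENSMUSG00000092341, chr19:5795690-5802672), which resides in nuclear speckles, had 85.5, 120.1 and 88.4 CPM in the knockout libraries and 63.4, 71.7 and 63.1 CPM in wild type. All knockout libraries were above all wild-type libraries and knockout replicate 2 was the highest, yet edgeR's robust fit did not call it (log2 fold change 0.56, SE 0.16, adjusted p = 0.0553). It was called in 8 of 16 alternatives, with adjusted p from 7.30e-10 without a count filter to 0.0418 with transcript lengths as an offset, among them DESeq2 (0.00917) and the fit without knockout replicate 2 (0.40, adjusted p = 0.000138). In TPM it stood at 24.0, 20.6 and 24.4 in the knockout and 11.9, 14.6 and 7.82 in wild type, and its log2 difference on log2(TPM + 1) was 0.99 (limma, adjusted p = 0.0124). The TPM values divide by a transcript length that the quantification estimated at 3515, 5282 and 3714 bases in the knockout and 4832, 4363 and 6983 bases in wild type. Neat1, the gene of a scaffold RNA of paraspeckles, had 36.5, 44.4 and 38.3 CPM in the knockout libraries and 40.5, 34.9 and 35.4 CPM in wild type. The groups overlapped (log2 fold change 0.10, SE 0.09, adjusted p = 0.46). Its estimated transcript length averaged 3121 bases in the knockout and 3100 bases in wild type. For both genes, RNA without a poly(A) tail can be missed in these libraries of polyadenylated RNA. The Neat1 value therefore does not show whether every form of its RNA was unchanged.

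Of 16 genes on a list of paraspeckle proteins, 10 rose and 0 fell, where 12.1% of all tested genes rose and 14.4% fell. The median was 0.20 against 0.02 over all tested genes, and the other 6 were not called, with Dazap1 (-0.07) and Tardbp (-0.06) below 0. The largest rise was that of Pspc1, which encodes paraspeckle component 1, with 38.6, 36.7 and 40.2 CPM (knockout) against 25.7, 20.7 and 25.1 CPM (wild type) (0.70, adjusted p = 3.28e-06). Its partners of the same protein family, Sfpq (0.31) and Nono (0.22), rose too, as did Ewsr1 (0.34) and Taf15 (0.25), which encode RNA-binding proteins, and the cleavage factor genes Cpsf6 (0.29) and Nudt21 (0.20), with Rbm14 (0.19) and Hnrnpa1 (0.12). Nudt21 lies on chromosome 8, where 30.2% of tested genes rose, and Ewsr1 and Taf15 on chromosome 11. Without chromosomes 6, 8 and 11, 7 of 13 rose, and without knockout replicate 2, 10 of 16.

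Of 13 genes of nuclear speckle and Malat1-binding proteins, 5 rose and 2 fell (median 0.08), against the same 12.1% and 14.4% of all tested genes. Srsf5, a serine- and arginine-rich splicing factor, rose from 126.1 to 176 CPM on average (0.48, adjusted p = 6.33e-09), and Rbfox2 (0.27), Srsf7 (0.16), Srrm2 (0.15) and Srsf6 (0.14) rose less. Prpf8, a core protein of the spliceosome, fell (-0.29, adjusted p = 1.31e-05), as did Son (-0.20). The nuclear exosome, which degrades many noncoding RNAs, and its adaptors had 2 rises and 2 falls among 20 tested genes (median -0.01), no larger a share than among all tested genes. The falls were in the exosome subunits Exosc4 (-0.45) and Exosc2 (-0.26), and the rises in the helicase gene Mtrex (0.21) and in Mphosph6 (0.23), which lies on chromosome 8. Of 14 Integrator genes, whose complex ends the transcription of many short RNAs, Ints8 (0.24) and Ints10 (0.22) rose and Ints11 (-0.34), the catalytic subunit, fell, again shares near those of all tested genes.

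Of 6 genes listed as hosts of small RNAs, 2 fell (Snhg20 and Epb41l4aos) and 4 were not called, where 14.4% of all tested genes fell and 12.1% rose. Snhg6 (96.7, 99.6 and 95.1 CPM in the knockout libraries and 102, 96.6 and 88.5 CPM in wild type) had overlapping groups (log2 fold change 0.02, SE 0.06, adjusted p = 0.828), as did Snhg12 (-0.09, adjusted p = 0.318) and Snhg18 (0.27, adjusted p = 0.416). Snhg20 was called lower, with 39.4, 48.8 and 38.5 CPM in the knockout libraries and 45.9, 55.5 and 52.1 CPM in wild type, although its groups overlapped (log2 fold change -0.29, SE 0.09, adjusted p = 0.0185). That call was lost in 9 of the 15 alternatives run for this gene of chromosome 11, DESeq2 (adjusted p = 0.0947) and the removal of either knockout replicate 1 or 3 or of wild-type replicate 2 or 3 among them (0.0705 to 0.139). Mir17hg, the host of the miR-17 cluster, had a log2 fold change of 0.26 (adjusted p = 0.374), and Pvt1, the neighbour of Myc, 0.26 (adjusted p = 0.381). Epb41l4aos (ENSMUSG00000087590, chr18:33794892-33795986) fell, with 64.8, 71.8 and 59.9 CPM in the knockout libraries and 85.8, 88.6 and 90.4 CPM in wild type and no overlap (log2 fold change -0.43, SE 0.07, adjusted p = 7.96e-06).

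Norad and Cyrano are lincRNAs known for a decoy and a decay function. Norad (2900097C17Rik in the files), which binds Pumilio proteins, had 96.4, 97.2 and 98.98 CPM in the knockout libraries and 87.7, 85.5 and 78.9 CPM in wild type, a small rise without overlap (log2 fold change 0.21, SE 0.06, adjusted p = 0.00721). DESeq2 (adjusted p = 0.0725), limma on log2(TPM + 1) (0.0595) and the removal of wild-type replicate 3 (0.0681) were among the 5 of 16 alternatives that ended that call. Cyrano (1700020I14Rik), which triggers the decay of a microRNA, had 48.98, 49.9 and 44.03 CPM in the knockout libraries and 47.5, 46.7 and 48.3 CPM in wild type, so that the groups overlapped (log2 fold change 0.00, SE 0.08, adjusted p = 0.993). Its estimated mean transcript length did not overlap between groups, at 4409, 5015 and 4641 bases in the knockout and 3921, 3663 and 4249 bases in wild type. Among 71 genes with several annotated transcripts, the estimated length was apart between groups in 12, a share near the 14.4% of all tested genes with several transcripts. It was longer in the knockout by over 1.2-fold in 2410018L13Rik (1.29), 1110002J07Rik (1.44) and Gm40983 (1.56), named after their values were seen. No test was run on lengths.

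Among the 8 lincRNA genes of highest TPM, 4 fell and 0 rose, where 14.4% of all tested genes fell and 12.1% rose. Gm45184 (ENSMUSG00000108483, chr7:127434422-127439392), a spliced RNA that faces Zfp689, was the most abundant of those called, at a mean of 680.2 TPM. It had 357, 431 and 417 CPM in the knockout libraries and 819.8, 825 and 910.3 CPM in wild type. The groups were far apart (log2 fold change -1.08, SE 0.06, adjusted p = 2.38e-09). Gm26825 had 969, 971 and 992 CPM in the knockout libraries and 1205, 1242 and 1271 CPM in wild type (log2 fold change -0.34, SE 0.04, adjusted p = 2.33e-07), and 94.6% of its 31-base words occur in other annotated genes, so its count is uncertain. 1810058I24Rik had 163, 163 and 148 CPM in the knockout libraries and 180.1, 187 and 185 CPM in wild type (log2 fold change -0.22, SE 0.05, adjusted p = 0.000771); both TPM fits left it uncalled (adjusted p = 0.0643 and 0.0638). Epb41l4aos, described above, was the other gene that fell. Of the remaining 4, Snhg6 was not called and AY036118, Gm42418 and Gm26917 belong to the ribosomal RNA locus.

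**Figure D2:**
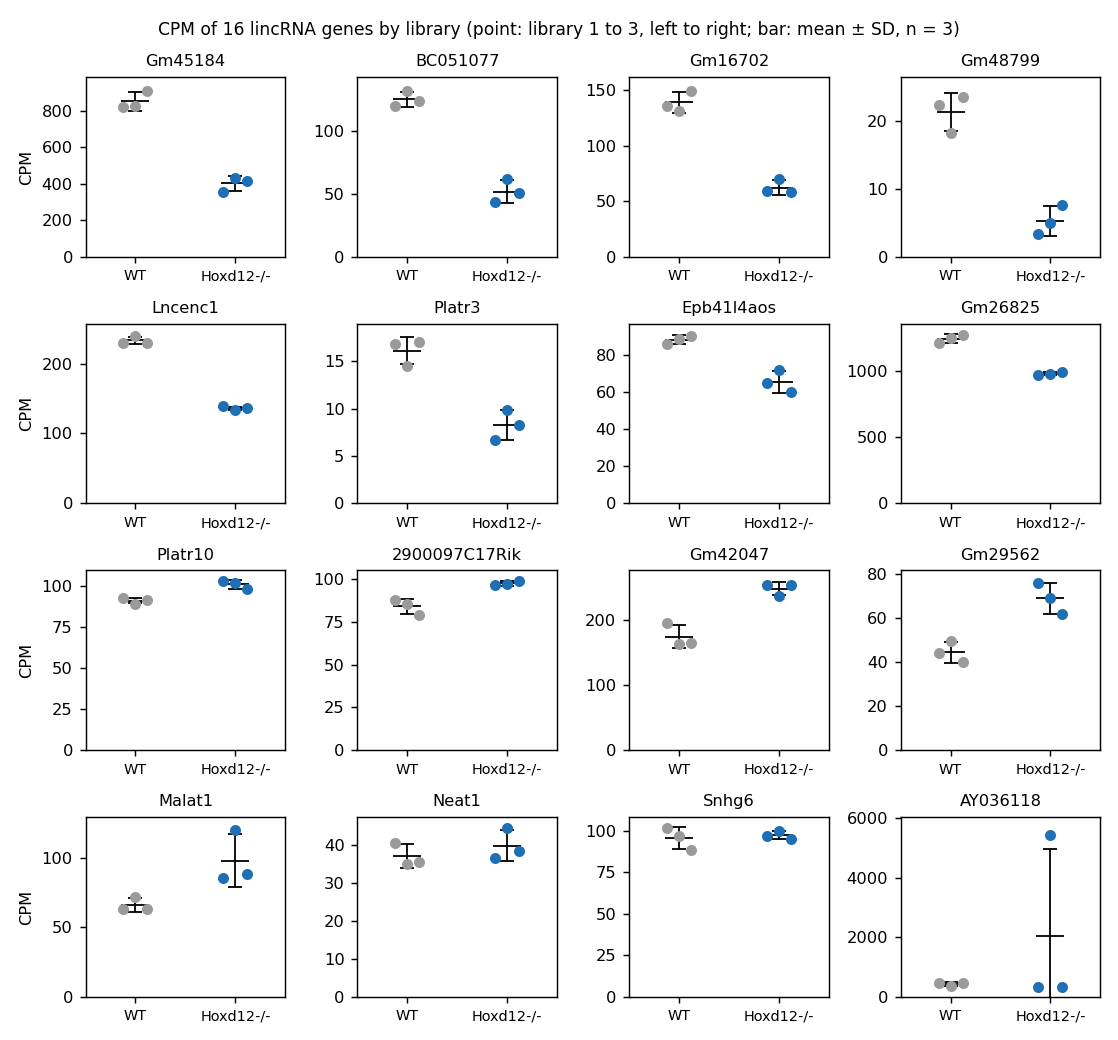
CPM of 16 lincRNA genes in each library, with wild type in grey on the left and Hoxd12-/- in blue on the right of each panel. Points are libraries 1 to 3 and bars are the mean ± SD over 3 libraries, with every vertical axis starting at 0, where the bar of AY036118 is cut. Gm45184, BC051077, Gm16702, Gm48799, Lncenc1 and Platr3 lie lower in all 3 knockout libraries, Gm42047 and Gm29562 higher, and AY036118 is high in knockout replicate 2 alone.

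Many of the genes that fell most share sequence with other genes. Each annotated transcript was cut into overlapping words of 31 bases, and 140 of the 159 genes shared at least 1 word with another gene on either strand. The most widely shared word of each gene was taken, low-complexity repeats aside, where at least 100 other genes held it. The most frequent among these top words was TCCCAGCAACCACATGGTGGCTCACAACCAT. It has the letters of the B2 element, a short interspersed element of rodents that derives from a transfer RNA and is inserted throughout the mouse genome. The assignment rests on the letters and not on a repeat annotation. Transcripts of 719 annotated genes hold it on one strand or the other, among them 20 of the 159. The word was picked after the fold changes were known, so the values below are a description.

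Shown are the word and 25 bases on each side in the 6 genes with the largest falls whose window lies inside 1 exon. They are written in the direction of the word, which stands in capitals, to show that the surrounding bases differ while the word is the same. The windows lie at chr2:180370531-180370611 (minus strand, last of 7 exons), chr5:117312712-117312792 (minus strand, last of 2 exons), chr17:73259311-73259391 (minus strand, last of 4 exons), chr8:22646067-22646147 (plus strand, last of 2 exons), chr17:8379736-8379816 (plus strand, last of 3 exons) and chr17:70970671-70970751 (plus strand, last of 2 exons), on GRCm38.
B230312C02Rik: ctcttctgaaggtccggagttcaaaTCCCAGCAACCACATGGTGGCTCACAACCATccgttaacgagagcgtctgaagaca
BC051077: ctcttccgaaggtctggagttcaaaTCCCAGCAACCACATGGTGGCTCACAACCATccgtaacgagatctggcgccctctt
AC112949.1: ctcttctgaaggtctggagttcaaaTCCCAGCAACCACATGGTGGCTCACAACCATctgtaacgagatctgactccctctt
Gm26909: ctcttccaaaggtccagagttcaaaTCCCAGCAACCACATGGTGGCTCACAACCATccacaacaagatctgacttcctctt
Gm16702: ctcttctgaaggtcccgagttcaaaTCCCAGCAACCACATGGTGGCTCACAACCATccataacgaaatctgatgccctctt
AC154187.1: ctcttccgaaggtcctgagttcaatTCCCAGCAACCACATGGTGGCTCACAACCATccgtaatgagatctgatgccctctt

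In AC112949.1 and Gm16702 the word runs against the direction of the transcript, and in the other 4 along it. Of 81 bases in each window, 59 to 62 were the same as in B230312C02Rik, position by position and without gaps. B230312C02Rik has an extra t soon after the word, which shifts the bases that follow against the other windows. Its last bases also differ from those of the other windows when the t is left out. The shift therefore accounts for only a part of the mismatches. The word stood in the last exon in all 6. AC112949.1, Gm26909, Gm16702 and AC154187.1 are lincRNA genes of unknown role, and the last 3 of these stand outside the rule for named genes.

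All 20 lincRNA genes with the B2 word had a log2 fold change below 0, 14 of them fell and 0 rose, with a median of -0.98. The 139 without it had 39 falls and 6 rises and a median of -0.23. Where the word ran along the transcript, 8 of 11 fell (median -1.15), and where it ran against it, 6 of 9 (-0.71). Summed over the 20, the level was 663, 779 and 732 CPM in the knockout libraries and 1454, 1491 and 1587 CPM in wild type. The groups did not overlap, and an exact two-sided permutation test gave p = 0.1, the smallest that 3 against 3 libraries allow. Since the word was picked with the fold changes known, this p-value lends the fall no support. Gm45184, 1 of the 20, made up the larger part of the sum in every library. Leaving out knockout replicate 2 left 14 of 20 lower.

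Gm45184 holds the word, and so does BC051077 (ENSMUSG00000097163, chr5:117312518-117315645), which starts opposite Vsig10. BC051077 had 43.4, 61.6 and 50.5 CPM in the knockout libraries and 119.98, 131 and 124 CPM in wild type, a fall of over 2-fold (log2 fold change -1.28, SE 0.09, adjusted p = 1.65e-07). Gm39459 had 10.9, 15.3 and 14.9 CPM in the knockout libraries and 37.2, 31.1 and 36.4 CPM in wild type (log2 fold change -1.35, SE 0.12, adjusted p = 3.77e-10). Gm32885 had 20.8, 20.99 and 14.3 CPM in the knockout libraries and 37.9, 47.7 and 46.9 CPM in wild type (log2 fold change -1.25, SE 0.13, adjusted p = 5.85e-08). In all 3 genes the highest knockout library was below the lowest wild-type library. B230312C02Rik (-1.28, adjusted p = 0.000104) and AC112949.1 (-1.25, adjusted p = 1.64e-07) also fell, at levels of 8.57 ± 1.49 CPM (wild type) against 3.55 ± 0.789 CPM (knockout) for the first and 18.3 ± 0.687 CPM (wild type) against 7.65 ± 1.35 CPM (knockout) for the second (SD, n = 3).

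An expected count is whole when no read is divided between genes. Counts were whole in every library for 39 of the 159 genes and for 0 of the 20 with the B2 word. Of those 39 genes 11 fell and 1 rose, with a median of -0.22, and the 120 others had 42 falls and 5 rises (-0.32). Leaving aside genes with the B2 word or the word described next, the 95 genes with divided reads had a median of -0.22, with 24 falls and 5 rises. DESeq2 called 7 of the 39 lower and limma on log2(TPM + 1) 6. Of all tested genes, edgeR called 14.4% lower, DESeq2 9.99% and limma 5.81%. What part divided reads have in the falls of the genes with the B2 word was not tested.

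**Figure D3:**
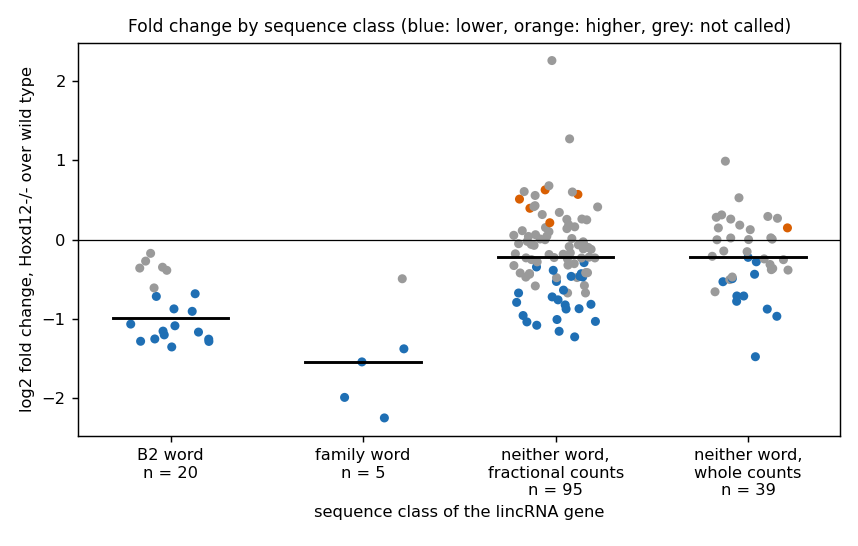
Log2 fold change of each lincRNA gene (points; blue for called lower, orange for called higher, grey for not called) in 4 sequence classes, with the median as a black line. The 20 genes with the B2 word and the 5 with the family word all lie below 0, while the medians of the other 95 and 39 genes are -0.22 and -0.22.

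The 3 largest falls were in a set of near copies on chromosomes 12 and 13. Gm47486 (ENSMUSG00000113673, chr13:10974423-10979945), Gm48799 (ENSMUSG00000113847, chr13:18002310-18008344) and Gm48764 (ENSMUSG00000112496, chr12:9503584-9509637) share 68.2% to 78.8% of their words pairwise, and over 94% of the words of each occur in some other annotated gene, so reads can be split among copies and the value of each is uncertain. Near the start of the first exon all 3 hold the word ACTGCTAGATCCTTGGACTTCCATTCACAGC, which transcripts of 170 annotated genes hold. The windows at chr13:10974445-10974525 (plus strand), chr13:18008242-18008322 (minus strand) and chr12:9509536-9509616 (minus strand) show how alike the copies are, with the word in capitals.
Gm47486: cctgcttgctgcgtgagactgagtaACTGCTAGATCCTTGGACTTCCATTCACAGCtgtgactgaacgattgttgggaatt
Gm48799: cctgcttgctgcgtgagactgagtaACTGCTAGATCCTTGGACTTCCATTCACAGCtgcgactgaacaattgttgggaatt
Gm48764: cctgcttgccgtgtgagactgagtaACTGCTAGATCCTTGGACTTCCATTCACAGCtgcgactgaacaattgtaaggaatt

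Over these 81 bases Gm48799 had 79 and Gm48764 had 75 in common with Gm47486. Gm47486 had 2.72, 1.89 and 2.46 CPM in the knockout libraries and 9.95, 10.7 and 13.4 CPM in wild type (log2 fold change -2.25, SE 0.24, adjusted p = 6.24e-09). Gm48799 had 3.36, 4.92 and 7.70 CPM in the knockout libraries and 22.4, 18.2 and 23.5 CPM in wild type (log2 fold change -1.99, SE 0.20, adjusted p = 4.05e-08). Gm48764 had 6.72, 11.7 and 8.47 CPM in the knockout libraries and 26.5, 28.3 and 22.3 CPM in wild type (log2 fold change -1.54, SE 0.16, adjusted p = 4.88e-09). Each was lower in every knockout library than in any wild-type library. Gm38947, which holds the word too, fell as well (log2 fold change -1.37, SE 0.29, adjusted p = 0.000515). The word was taken from Gm47486 with its fall known, so the counts that follow are a description. Over all tested genes with this word, the lincRNA genes above included, 21 of 46 fell and 0 rose. Of the tested genes without it 14.3% fell and 12.1% rose. Among coding genes with the word 14 of 37 fell (median -0.06), and without it 13.8% fell.

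The values of near copies did not always move together. Gm42047, Gm47939 and Gm48362 share 67.6% to 79.4% of their words pairwise. Reads can be split among these copies too, so the value of each is uncertain. Gm42047 had 254, 237 and 254.6 CPM in the knockout libraries and 195, 164 and 164 CPM in wild type. It rose (log2 fold change 0.51, SE 0.06, adjusted p = 8.89e-07) and lies on chromosome 8, where 30.2% of tested genes rose. Gm47939 had 86.9, 104 and 74.97 CPM in the knockout libraries and 61.5, 92.3 and 83.5 CPM in wild type, with overlapping groups (log2 fold change 0.15, SE 0.21, adjusted p = 0.676). Gm48362 had 3.20, 3.403 and 1.54 CPM in the knockout libraries and 6.99, 4.72 and 3.95 CPM in wild type and fell (log2 fold change -0.95, SE 0.32, adjusted p = 0.0251). Gm47939 and Gm48362 were named after their values were seen.

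Genes of other classes with the B2 word also had a higher share of falls than those without it. Of 495 tested coding genes whose transcripts hold it, 167 fell (33.7%) and 43 rose, with a median of -0.10. Of 11308 coding genes without it, 12.98% fell and 12.8% rose (0.03). Among TEC genes 28 of 39 with the word fell and 16 of 108 without it, and among antisense genes 12 of 19 and 17 of 119. A second widely shared word, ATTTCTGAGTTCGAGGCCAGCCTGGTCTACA, has the letters of the B1 element and was the most widely shared of all. Coding genes with it had 72 rises and 72 falls of 513 (median 0.03), and 2 of 6 lincRNA genes with it fell. These are counts without a test of the difference.

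**Figure D4:**
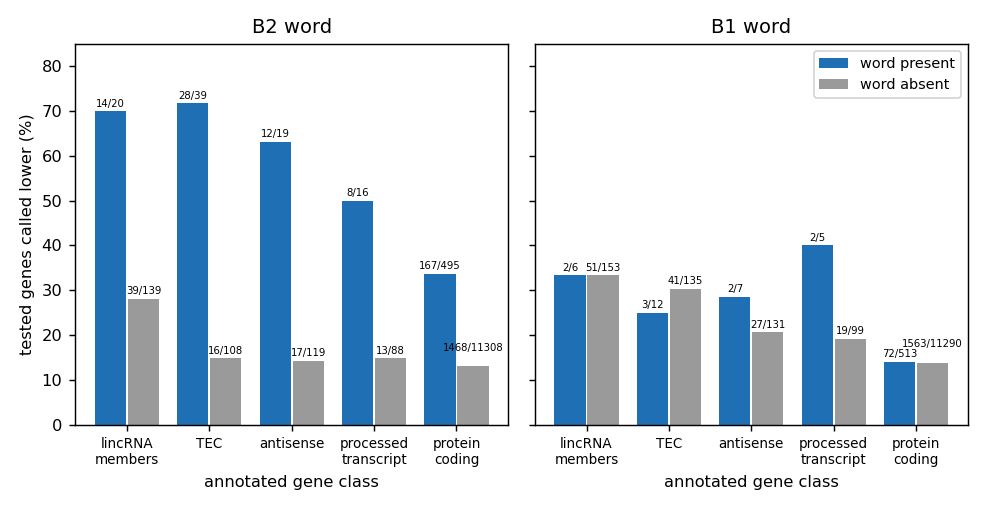
Share of tested genes called lower in the knockout (vertical axis, percent) by annotated gene class, for genes whose transcripts hold the word (blue) or do not (grey), with the counts above the bars. On the left is the B2 word, for which 14 of 20 lincRNA genes and 167 of 495 coding genes fell, and on the right the B1 word, for which 2 of 6 and 72 of 513 did.

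The 6 lincRNA genes that rose did so by less than 2-fold. Besides Gm42047, Norad and Platr10 they were Gm29562, 2410017I17Rik and Gm26790. Gm29562 (ENSMUSG00000101698, chr9:88827522-88828425), a single-exon gene near Trim43c, had 75.7, 69.2 and 61.9 CPM in the knockout libraries and 44.2, 49.3 and 39.9 CPM in wild type and the largest rise (log2 fold change 0.63, SE 0.08, adjusted p = 9.42e-07); 87.2% of its words occur in other genes. 2410017I17Rik had 8.32, 6.81 and 8.005 CPM in the knockout libraries and 5.24, 5.21 and 5.16 CPM in wild type (log2 fold change 0.57, SE 0.21, adjusted p = 0.0425) and Gm26790 13.9, 17.2 and 15.7 CPM in the knockout libraries and 11.003, 13.5 and 10.8 CPM in wild type (log2 fold change 0.40, SE 0.15, adjusted p = 0.0442). The groups of both were apart, but their calls were lost in 10 and 8 of 16 alternatives, including DESeq2 (adjusted p = 0.189 and 0.197).

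Because lincRNAs can act on or be shaped by the gene beside them, each was set against the coding gene with the nearest span. The distance between spans had a median of 7618 bases and reached 1436472 bases, so that a neighbour was not always close by. The neighbour was tested for 120 of the 159. Of these 120 lincRNA genes, 36 were called while the neighbour was not, 21 had only the neighbour called, 54 had neither, 3 pairs were called in the same direction and 6 in opposite directions. The median of the lincRNA genes in these pairs was -0.29 and that of the neighbours 0.07. Of the 116 distinct neighbours 18 were higher and 11 lower, where 12.7% of all tested coding genes rose and 13.9% fell. Across the 120 pairs the log2 fold changes had a Pearson correlation of 0.02, a description over genes that share the same libraries. The 3 pairs in the same direction, all lower, were Gm43057 and Ythdc1, Eprn and Mrpl36, and AC131065.2 and Rbfa. Pairs in opposite directions were unstable: 0 to 5 were called when 1 library was left out, 0 of them without knockout replicate 3 or without wild-type replicate 2, and 1 and 2 without wild-type replicate 3 or knockout replicate 1.

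The ratio of each lincRNA gene to its neighbour was tested with limma on the log2 ratio of CPM + 0.5. It was called for 33 of 120, 30 of them lower and 3 higher, where 16.7% of 9164 tested gene and neighbour pairs were called (8.66% lower and 8.02% higher). Of the 94 tested pairs with spans within 50 kb, 27 had a called ratio, 24 of them lower and 3 higher. Gm47486 fell against Ryr2, the gene of a calcium channel of heart muscle, with a ratio difference of -2.28, SE 0.41, adjusted p = 0.000437. Ryr2 lies 573157 bases away, had only 6 to 16 counts per library and was not called itself (0.31, adjusted p = 0.663). Gm39459 fell against Ctnnb1, which encodes beta-catenin, by a ratio difference of -1.45, SE 0.14, adjusted p = 1.22e-07. The spans of these 2 genes lie 84280 bases apart. Ctnnb1 had 238, 234 and 243 CPM (knockout) against 227, 204 and 225 CPM (wild type), a small rise (0.13, adjusted p = 0.0389) whose call was lost with DESeq2 (0.192). The other large differences were BC051077 against Vsig10 (-1.50), AC112949.1 against Lclat1 (-1.62) and Gm48799 against Yae1d1 (-2.07), none of whose neighbours was called (adjusted p = 0.394, 0.266 and 0.48).

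Lncenc1 fell against Enc1 (ratio difference -0.61, SE 0.12, adjusted p = 0.000662), whose own value was -0.17, adjusted p = 0.227. Enc1 lies 181936 bases away. Eprn did not differ from Mrpl36 beyond the spread (-0.14, SE 0.19, adjusted p = 0.671), and both fell. Lockd, which lies downstream of the CDK inhibitor gene Cdkn1b on the same strand, had 10.6, 8.89 and 9.08 CPM in the knockout libraries and 12.1, 14.01 and 12.03 CPM in wild type (log2 fold change -0.41, SE 0.16, adjusted p = 0.0519). Cdkn1b had 23.7, 22.5 and 29.7 CPM (knockout) against 15.5, 11.4 and 11.3 CPM (wild type) and rose (1.00, adjusted p = 1.70e-06), so that the ratio was lower in the knockout (-1.36, SE 0.20, adjusted p = 3.64e-05). Higher ratios included those of Gm26790 to Zfp507 (1.04, SE 0.24, adjusted p = 0.00451) and Gm26880 to Zfp981 (1.07, SE 0.28, adjusted p = 0.0101). Gm26790 and Gm26880 overlap their neighbours on the opposite strand, where reads can be told apart only if counting used strand, which is not given in the sources used here. Eprn, Lockd, Gm26880, Gm12976, 1700001L05Rik and the 3 pairs in the same direction were named after their values were seen.

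**Figure D5:**
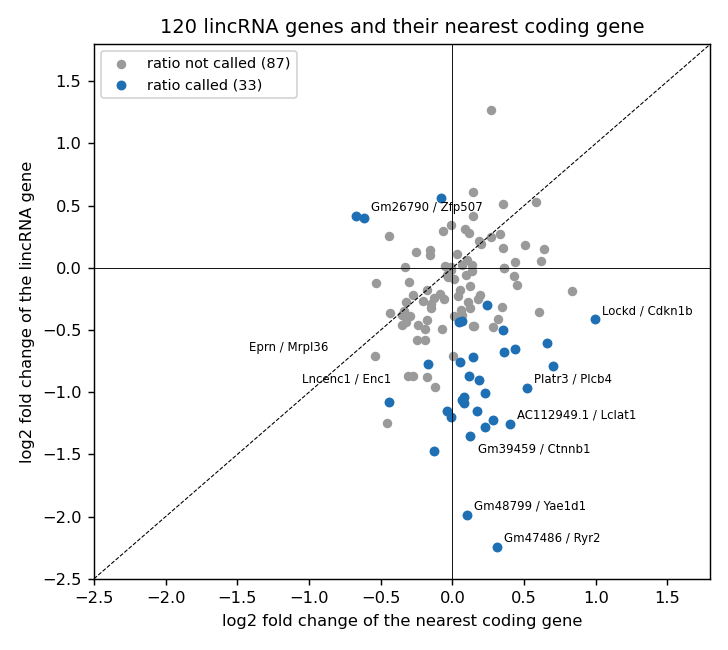
Log2 fold change of each of 120 lincRNA genes (vertical axis) against that of its nearest coding gene (horizontal axis), with the line of equal change dashed. Blue marks the 33 pairs whose ratio was called, 30 of which lie below the line, among them Gm47486 and Ryr2 at the bottom and Lockd and Cdkn1b at the right.

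Calls were spread over the arrangements of the pairs. For comparison, 14.4% of all tested genes fell and 12.1% rose, and of all 159 lincRNA genes 33.3% fell and 3.77% rose. Of 32 lincRNA genes transcribed away from their neighbour 9 fell and 0 rose, of 27 facing it 13 fell and 3 rose, of 38 upstream on the same strand 14 fell and 1 rose, and of 30 downstream on the same strand 9 fell and 0 rose. Of 24 that overlap the neighbour on the opposite strand 7 fell and 1 rose, and of 8 that overlap it on the same strand 1 fell and 1 rose. Divergent pairs with starts within 1 kb can share a promoter region; there were 11, and 10 had both genes tested. Their median was -0.25 for the lincRNA genes and 0.23 for the neighbours, and 0 pairs were called in the same direction. Of the 10 neighbours 3 rose and 0 fell, where 12.7% of tested coding genes rose and 13.9% fell. In this arrangement Gm12976 had 31.5, 31.4 and 33.3 CPM in the knockout libraries and 53.1, 64.8 and 61.9 CPM in wild type (log2 fold change -0.90, SE 0.09, adjusted p = 7.39e-10), while C77080 stood at 85.8, 83.2 and 93.4 CPM (knockout) against 82.96, 75.6 and 72.9 CPM (wild type) (0.18, adjusted p = 0.0352). Of 82 genes that overlap the span of no other gene 30 fell and 3 rose, and of 49 whose exons overlap an exon of another gene 13 fell and 2 rose.

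Summed over all 159 genes, lincRNA expression was 5489, 12669 and 5369 CPM in the knockout libraries and 7126, 7167 and 7355 CPM in wild type. Knockout replicate 2 was the highest of all libraries and the other 2 knockout libraries the lowest (log2 ratio of means 0.12, exact two-sided permutation p = 1.0). Without the most abundant gene, AY036118, the sums were 5146, 7238 and 5051 CPM in the knockout and 6672, 6812 and 6894 CPM in wild type. The groups overlapped (log2 ratio -0.22, exact permutation p = 0.4). Leaving out all 3 genes of the ribosomal RNA locus was chosen after the data were seen. The sums were then 4209, 4508 and 4228 CPM in the knockout libraries and 5498, 5656 and 5709.9 CPM in wild type. The groups then did not overlap, with a log2 ratio of -0.38 and an exact permutation p of 0.1. The same 156 genes summed to 3773, 3806 and 3876 TPM in the knockout and 4879.5, 4959 and 4915 TPM in wild type. Leaving out knockout replicate 2 instead gave a log2 ratio of -0.41 over all 159. The 38 genes with whole counts outside that locus summed to 853, 898 and 830.4 CPM in the knockout libraries and 1039, 1055 and 1039 CPM in wild type, also without overlap.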

How the data were processed

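RNA of 6 libraries was sequenced, 3 from Hoxd12-/- and 3 from wild-type mouse embryonic stem cells. The authors deposited, per the file headers, 1 table per library that lists for every gene a length in bases, an expected count, a TPM and an FPKM. FPKM values deposited by the authors were not used. Bowtie 0.12.2 appears in the submitters' processing notes, as do mm10 and mm8, with no role for either build. Quantifier, annotation and strand setting: not given in the sources used here. Every one of the 55450 identifiers matched GENCODE M21 (GRCm38), from which gene classes and coordinates were taken.

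Expected counts were rounded and tested with edgeR 4.0.16 (TMM scaling, filterByExpr, robust quasi-likelihood fit) in R 4.3.3, with Benjamini-Hochberg adjustment over 12891 genes and a threshold of 0.05. Ratios to the nearest coding gene were tested with limma 3.58.1 on log2 CPM with 0.5 added, and summed levels with an exact permutation test in SciPy 1.17.1. Alternatives were DESeq2 1.42.0, limma on log2(TPM + 1) and log2(TPM + 0.1), other scalings and filters, glmTreat at 1.2-fold, a replicate block, and leaving out each library. Splits by shared words and by whole counts, the counts within them, and sums without the ribosomal RNA locus were chosen after seeing the data. The scripts were tested on simulated data. At these depths 3 counts equal 0.478 to 0.554 CPM, which covers counting error only.

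The members and gene lists were chosen with earlier results of these data known. Genes were named by rule: the 10 highest and 10 lowest called changes with groups that do not overlap, the 8 genes of highest TPM, lincRNAs of known role, and nearest coding genes. Others are marked in the text.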

Additional observations from a re-analysis of the deposited data

How the results depend on the processing

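Over all alternatives run, the median log2 fold change of the lincRNA genes stayed below 0. It was -0.13 with limma on log2(TPM + 1) and -0.15 with a pseudocount of 0.1, where the median of all genes was 0.10 and 0.11, and 34 lincRNA genes fell in each. Of all genes, 749 and 738 fell in these fits, with 1107 rises against 749 falls on log2(TPM + 1). DESeq2 called 701 of all genes higher. With glmTreat at 1.2-fold 2 lincRNA genes rose and 34 fell, and of all genes 273 rose and 533 fell. Counts over fewer genes were 3 rises and 30 falls without span overlap, and 1 rise and 11 falls with whole counts. Leaving out 1 library gave 2 to 7 rises and 44 to 52 falls, with 2 rises without wild-type replicate 3. The summed level reversed from 0.12 to -0.38 without the ribosomal RNA locus, and ranged from -0.41 to 0.33 when 1 library was left out, the lowest without knockout replicate 2. With the nearest tested coding gene 5 pairs moved in the same direction, and with 1 library left out 0 to 5 moved in opposite directions. Replicate numbers did not pair the libraries (correlations of same-numbered libraries 1.06e-05, 0.039 and 0.018). With the replicate as a block 6 lincRNA genes rose and 52 fell, 1513 of all genes rose and 1840 fell, the median was -0.28, 3 pairs moved in the same and 5 in opposite directions, and 35 ratios were called. Of 25 named genes that were called, 15 stayed so in all 16 alternatives, Gm42047 on chromosome 8 stayed so in the 15 run for it, 9 lost the call in at least 1 and 0 reversed. Of the 80 lincRNA genes at or below the median level 15 were called, and whether depth limits this was not tested.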
